A study of Mus musculus with 24 samples.

Results

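The annexins are a family of calcium-dependent proteins that bind phospholipids on the inner face of membranes. Each carries a conserved core of repeats that docks onto negatively charged lipids when calcium rises, and an amino-terminal tail that differs between members and binds partners such as S100 proteins. In the lung, annexins have been studied in surfactant secretion, in the resolution of inflammation and in the resealing of torn membranes. The 9 members described here are Anxa1, Anxa2, Anxa3, Anxa4, Anxa5, Anxa6, Anxa7, Anxa8, and Anxa11. They were taken by gene symbol from the 55421 Ensembl genes of the count table, and all 9 passed the filter on low counts.

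AEC2s, the surfactant-producing alveolar epithelial cells, were isolated from mice with intact keratin 8 (Krt8+/+, WT in the labels) and from mice without it (Krt8–/–, KO). RNA was sequenced from fresh cells (day 0) and from cells after 1, 3, and 7 days in 2D culture on a stiff substrate coated with laminin, which gave 24 libraries in 8 groups of 3. The labels give 3 batch numbers, each carried by 1 library of every group, and number the biological replicates in the same way. All cultured cells of both genotypes shared this substrate. The sources used here do not give the strain, the age, or how many mice made up a batch. The comparisons ask how gene expression changes as AEC2s leave their starting state in culture, and whether the absence of keratin 8 alters that course.

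Levels are given as CPM, counts scaled to library size with edgeR's TMM factors, and per kilobase of merged exons where genes are compared with each other. Library totals ran from 10184439 to 19483386 counts. Krt8 itself was at 523 ± 34.6 CPM (SD, n = 3) in fresh Krt8+/+ cells and at 4030 ± 1068 on day 7, and its group means lay between 29.6 and 38.2 CPM in Krt8–/– AECs. Batch 1 differed between genotypes in sex-linked transcripts. Its Krt8+/+ libraries had at most 0.441 summed CPM of 4 Y-linked genes and 62.4 to 79.5 CPM of Xist, whereas its Krt8–/– libraries had at least 173 summed CPM of the Y-linked genes and 5.92 to 11.95 CPM of Xist. Both genotypes were alike in batches 2 and 3, but these batches differed from each other. The Y-linked genes summed to at most 0.241 CPM in batch 2 and to 174 to 229 CPM in batch 3. The summed level of 6 AEC2 markers was 221800 to 294300 CPM in fresh Krt8+/+ cells and 133 to 169 CPM on day 7. Markers of lymphocytes and neutrophils stayed at or below 18.3 summed CPM in every library and those of endothelium at or below 33.0. In bulk RNA, fewer cells of a type and less RNA per cell cannot be told apart.

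Sequence upstream of a RefSeq start is shown for the 4 members on which the account turns most. These are Anxa1 and Anxa8, with the largest rise, Anxa2, the most abundant in fresh cells, and Anxa11, with the largest fall by day 7. RefSeq starts on GRCm38.p6 were found for 7 of the 9 members. Anxa3 and Anxa6 were not matched. The 250 bases before each start were searched on both strands for the AP-1 motif TGANTCA, the TEAD motif GGAATG, the TATA box TATAAA, and the GC box GGGCGG. Of 32841 upstream windows of the same length, 6.75% held the AP-1 motif, 12.6% the TEAD motif, 12.4% the TATA box, and 32.7% the GC box. Capitals below mark the TATA box in the 30-base stretches and every match in the longer ones, and a match is a description of the letters and not a bound site. No matches overlapped.
Anxa1, chr19:20390686-20390715, minus strand: cagttcatatccTATAAAatcaggagtcca
Anxa2, chr9:69453433-69453619, plus strand: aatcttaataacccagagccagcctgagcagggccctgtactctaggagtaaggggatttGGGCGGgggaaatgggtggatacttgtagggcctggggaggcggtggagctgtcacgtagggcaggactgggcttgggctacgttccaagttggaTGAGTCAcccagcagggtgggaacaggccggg
Anxa2, chr9:69453653-69453682, plus strand: aggatggggcgggTATAAAagccccaccca
Anxa8, chr14:34085729-34085978, plus strand: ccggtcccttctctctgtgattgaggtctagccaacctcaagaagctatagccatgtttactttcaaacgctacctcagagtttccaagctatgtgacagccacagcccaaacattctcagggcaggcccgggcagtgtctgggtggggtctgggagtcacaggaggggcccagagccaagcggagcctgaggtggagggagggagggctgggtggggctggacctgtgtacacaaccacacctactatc
Anxa11, chr14:25841905-25842154, plus strand: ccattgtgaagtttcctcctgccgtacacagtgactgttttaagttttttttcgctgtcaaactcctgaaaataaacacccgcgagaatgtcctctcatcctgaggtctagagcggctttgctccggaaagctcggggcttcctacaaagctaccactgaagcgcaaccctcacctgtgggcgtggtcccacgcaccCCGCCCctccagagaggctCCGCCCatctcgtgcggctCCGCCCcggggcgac

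In these windows, Anxa1 and Anxa2 each held a TATA box, at −32 and −17 from the RefSeq start. All 250 bases of the Anxa1 window and 63 bases of the Anxa2 window lie in GENCODE M21 exons of the same gene. Both TATA boxes fall in these exonic bases, and the GENCODE start of each gene lies further upstream. Anxa2 was the only one of the 7 members with an AP-1 match, at −95, and it held a GC box at −190 and another pair nearer the start. Anxa11 held 3 GC boxes, all read on the opposite strand, and no TATA box. None of the 4 motifs was found in the Anxa8 window, nor in those of Anxa4 and Anxa5, and Anxa7 held GC boxes alone. Anxa1 also had a TEAD match at −236 on the opposite strand. In the GRCm38 annotation (GENCODE M21), Anxa1 lies on chromosome 19 from 20373428 to 20390944, Anxa2 on chromosome 9 from 69453620 to 69491795, Anxa8 on chromosome 14 from 34085981 to 34100571, and Anxa11 on chromosome 14 from 25842156 to 25886804. The others are Anxa3 (chromosome 5, 96793339 to 96845966), Anxa4 (chromosome 6, 86736840 to 86793584), Anxa5 (chromosome 3, 36448923 to 36475894), Anxa6 (chromosome 11, 54979108 to 55033445), and Anxa7 (chromosome 14, 20455260 to 20480133).

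In fresh Krt8+/+ AEC2s, the family was led by Anxa2 and Anxa6 when length was taken as merged exons. Per kilobase, Anxa2 stood at 215 ± 19.6 CPM and Anxa6 at 177 ± 5.47, with no overlap between their libraries. Anxa3 at 143 ± 16.8 and Anxa5 at 138 ± 16.8 followed, and their libraries overlapped. Anxa4 at 86.0 ± 6.37 and Anxa1 at 73.8 ± 15.0 came next and also overlapped. The lowest were Anxa11 at 27.5 ± 1.34, Anxa7 at 16.1 ± 0.845, and Anxa8 at 8.47 ± 5.34, each apart from its neighbours. Krt8–/– AEC2s had the same 2 leaders, at 215 ± 16.0 for Anxa2 and 165 ± 12.4 for Anxa6, which there overlapped Anxa5 at 161 ± 10.9. The place of Anxa6 depends on the length used. The longest transcripts of Anxa3 and Anxa6 have 1595 and 2489 bases, against 3643 and 2930 bases of merged exons. By the longest transcript, Anxa3 came before Anxa6 in fresh cells of both genotypes.

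Culture changed both the size and the make-up of this pool. The 9 members together summed to 2926 ± 217 CPM in fresh Krt8+/+ libraries and to 8732 ± 656 CPM on day 7. These are sums after TMM scaling and not shares of the counts of a library. By merged-exon length, Anxa1 headed the per-kilobase order from day 1 on in both genotypes, apart from the next gene in every cultured group. This order depends on the length used. The longest transcripts of Anxa1 and Anxa3 have 1674 and 1595 bases, against 2911 and 3643 bases of merged exons. By the longest transcript, the day 1 mean of Anxa3 in Krt8–/– AECs was above that of Anxa1. Libraries of these genes then overlapped in both genotypes on days 1 and 3. By merged exons, the Anxa1 share of the summed members was 8.35% ± 1.55 in fresh Krt8+/+ cells. It was 29.3% ± 2.50, 26.5% ± 0.357, and 33.5% ± 2.87 after 1, 3, and 7 days. The Anxa6 share went from 20.01% ± 0.916 to 2.40% ± 1.08, 3.60% ± 0.673, and 4.80% ± 0.305 on the same days. Anxa2, Anxa3, and Anxa5 shared most of the rest, with 19.97% ± 1.89, 17.6% ± 0.246, and 16.3% ± 1.39 on day 7. Anxa11 was last in the order on days 3 and 7, with 0.410% ± 0.0140 of the pool on day 7. In Krt8–/– AECs, Anxa1 held 10.1% ± 1.20, 28.6% ± 3.20, 28.2% ± 1.57, and 34.9% ± 4.16 of the pool on the 4 days.

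**Figure D1:**
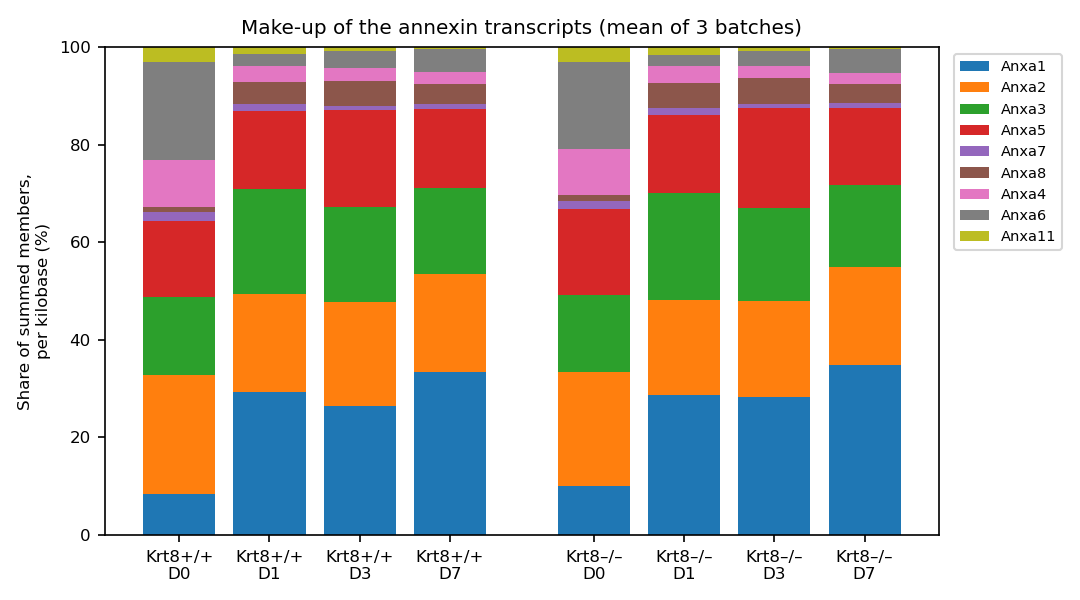
Share of each annexin in the sum of the 9 members, in percent of CPM per kilobase of merged exons, stacked by genotype and day of culture (mean of 3 batches). The Anxa1 segment grows from 8.35% to 33.5% in Krt8+/+ AECs and the Anxa6 segment shrinks from 20.01% to 4.80%. In Krt8–/– AECs the Anxa1 segment grows from 10.1% to 34.9%.

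Against day 0, 6 members were higher at every time point in both genotypes, namely Anxa1, Anxa2, Anxa3, Anxa5, Anxa7, and Anxa8. In Krt8+/+ AECs, 8 of 9 members passed an adjusted p of 0.05 in edgeR's quasi-likelihood test on day 1, of which 6 were higher. On day 3 there were 9 calls with 6 higher, and on day 7 there were 8 with 6 higher, although the lower calls of Anxa4 and of Anxa11 on day 3 lost their direction with another scaling, given with those genes. Of all 18046 genes tested, 54.7%, 54.0%, and 58.8% were called on these days, with 26.2%, 26.1%, and 28.6% called higher and 28.5%, 27.8%, and 30.2% called lower. In Krt8–/– AECs, 9 members were called after 1 day (7 of them higher), 8 after 3 days (6 higher), and 8 after 7 days (6 higher). All genes called there were 50.6%, 52.0%, and 58.5%, with 23.7%, 25.4%, and 28.6% higher and 26.9%, 26.6%, and 29.9% lower. The median log2 change of the members in Krt8+/+ AECs was 0.91, 1.29, and 1.40 on days 1, 3, and 7, and the median of all genes was 0.00 on each of these days. With library totals in place of TMM, a scaling chosen after the data were seen, the median of all genes shifted to 0.46, 0.60, and 0.45. The split of all genes in Krt8+/+ AECs then went from 4730 higher and 5144 lower to 7184 and 3115 after 1 day, from 4711 and 5025 to 8201 and 2784 after 3 days, and from 5158 and 5453 to 7507 and 3810 after 7 days. In Krt8–/– AECs it went from 4279 and 4852 to 7058 and 2772, from 4586 and 4803 to 7768 and 2756, and from 5162 and 5396 to 7332 and 3821. The median of the members in Krt8+/+ AECs was then 1.40, 1.90, and 1.86.

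**Figure D2:**
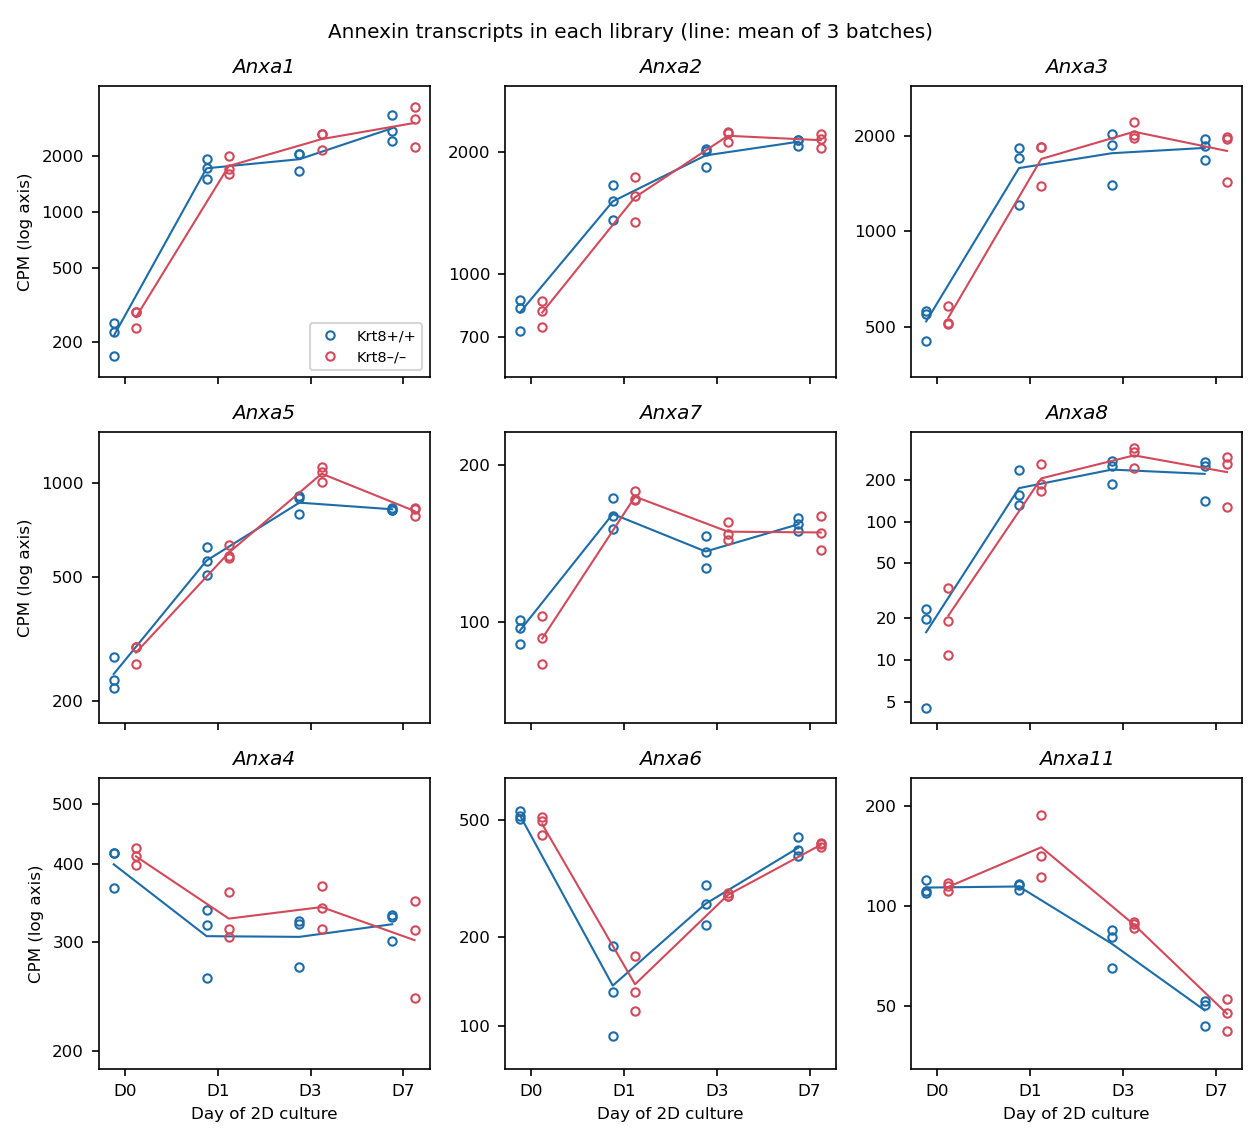
CPM of each annexin in each of the 24 libraries on a log axis, by day of 2D culture, with Krt8+/+ in blue and Krt8–/– in red (open points are batches, lines join the means of 3). Anxa1, Anxa2, Anxa3, Anxa5, Anxa7, and Anxa8 rise from day 0 to day 1, Anxa6 dips on day 1 and returns toward its starting level, and Anxa11 ends at 43.6 to 51.8 CPM in Krt8+/+ AECs.

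Anxa1 encodes a glucocorticoid-induced protein that acts through formyl peptide receptors to restrain neutrophil recruitment. In the 3 fresh Krt8+/+ libraries it was at 225, 253, and 167 CPM. Day 1 gave 1491, 1715, and 1917 CPM, day 3 gave 1653, 2031, and 2048, and day 7 gave 2705, 3301, and 2401. Every cultured library was above every fresh one. The log2 change was 2.99 (SE 0.20, adjusted p = 5.3e-10 from edgeR) on day 1, 3.15 on day 3, and 3.70 (SE 0.21, adjusted p = 2.5e-11) on day 7, which is 13.04-fold. In Krt8–/– AECs, Anxa1 went from 287, 290, and 237 CPM on day 0 to 3131, 3632, and 2211 on day 7, an 11.02-fold rise. The study lists Anxa1 among its markers of the transitional state, so its direction here is not independent evidence. The receptors Fpr1 and Fpr2 were barely counted, with at most 10.4 and 4.48 CPM in any library, and neither passed the test on any day.

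Anxa2 forms a complex with S100a10 that links membranes to actin and binds plasminogen at the cell surface. It was at 723, 865, and 824 CPM in fresh Krt8+/+ cells and at 2144, 2075, and 2144 on day 7. The steps between were 1360, 1663, and 1511 on day 1 and 1842, 2009, and 2035 on day 3. Thus no 2 neighbouring days overlapped, but day 7 against day 3 was not called (log2 change 0.11, adjusted p = 0.684 from edgeR). The log2 change from day 0 was 0.91 (SE 0.12), 1.29 (SE 0.12), and 1.40 (SE 0.12, adjusted p = 6.2e-09 from edgeR), or 2.64-fold on day 7, and 1.41 (SE 0.12) in Krt8–/– AECs. There, days 3 and 7 overlapped (log2 change −0.036, adjusted p = 0.91 from edgeR).

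Anxa5, which binds exposed phosphatidylserine and forms lattices at membrane wounds, rose in steps to day 3. Its Krt8+/+ libraries were at 221, 279, and 235 CPM on day 0, at 563, 624, and 509 on day 1, at 796, 910, and 894 on day 3, and at 821, 822, and 832 on day 7. Days 3 and 7 overlapped, and all other pairs of days were apart. On the log2 scale it was higher than on day 0 by 1.21 (SE 0.11), 1.82 (SE 0.11, adjusted p = 1.7e-10 from edgeR), and 1.75 (SE 0.11). Anxa3, less studied and known as an inhibitor of phospholipase A2 in vitro, went from 449, 549, and 560 CPM to 1216, 1832, and 1709 by day 1 and 1865, 1966, and 1679 by day 7, with log2 changes of 1.61 (SE 0.18), 1.77 (SE 0.18), and 1.82 (SE 0.18, adjusted p = 4.2e-08 from edgeR). Anxa3 shares 112 exonic bases with an overlapping transcript, Gm42603, which had 157 counts over all libraries against 506598 for Anxa3.

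Anxa8, a member found in skin and other stratified epithelia, was the lowest in fresh cells and had the widest error. Fresh Krt8+/+ libraries had 19.7, 23.5, and 4.54 CPM, the last from 41 counts. Day 1 gave 131, 239, and 156 CPM, day 3 gave 188, 253, and 276, and day 7 gave 272, 254, and 141. All cultured libraries were above all fresh ones. Its log2 change was 3.45 (SE 0.48, adjusted p = 5.7e-06 from edgeR), 3.90 (SE 0.49), and 3.79 (SE 0.49), with a 95% interval of 2.77 to 4.81 on day 7. In Krt8–/– AECs it was 3.30 (SE 0.48), 3.86 (SE 0.49), and 3.45 (SE 0.48).

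Anxa7 promotes fusion of lamellar bodies, the surfactant stores of AEC2s, with the plasma membrane. It had the smallest of the 6 rises. Krt8+/+ libraries were at 90.7, 101, and 97.1 CPM on day 0, at 151, 173, and 159 on day 1, at 127, 146, and 136 on day 3, and at 154, 158, and 149 on day 7. The log2 change was 0.74 (SE 0.10, adjusted p = 2.8e-06 from edgeR), 0.50 (SE 0.10), and 0.68 (SE 0.10). With library totals the values were 1.23, 1.11, and 1.13.

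Anxa4 is found at the apical side of epithelia. Fresh Krt8+/+ libraries were at 365, 417, and 416 CPM, and cultured ones at 337, 319, and 262 on day 1, 273, 323, and 320 on day 3, and 328, 331, and 301 on day 7. No cultured library reached the lowest fresh one. The log2 change was −0.38 (SE 0.13, adjusted p = 0.0172 from edgeR), −0.39 (SE 0.13, adjusted p = 0.0162), and −0.32 (SE 0.13, adjusted p = 0.0404), but with library totals it turned to 0.096, 0.22, and 0.14, which is −0.37, −0.38, and −0.31 relative to the median of all genes. The call on days 3 and 7 was lost without batch 1, 2, or 3 (adjusted p from 0.0512 to 0.246 in edgeR), and on day 1 without batch 2 (0.172) or 3 (0.191). It was also lost on all 3 days with no filter on low counts (adjusted p = 0.0613, 0.0937, and 0.163), and on day 1 when only these libraries were fitted (0.225). In Krt8–/– AECs, Anxa4 was called lower on day 1 (−0.33, SE 0.13, adjusted p = 0.0389) and day 7 (−0.45, SE 0.13, adjusted p = 0.0058, and −0.024 with library totals) and not on day 3 (−0.27, SE 0.13, adjusted p = 0.0879). The day 1 call there was lost without any of the batches (adjusted p from 0.0692 to 0.339) and the day 7 call without batch 3 (0.13). The day 1 call was also lost with no filter (0.126), DESeq2 size factors (0.0751), only these libraries (0.176), or DESeq2 (0.0604). With library totals the day 1 value turned to 0.15.

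Anxa6, which has a doubled core and acts in endocytosis and cholesterol transport, dipped and came back. The fresh Krt8+/+ libraries were at 503, 535, and 514 CPM, and those of day 1 at 187, 92.6, and 131. Day 3 gave 260, 299, and 219 CPM and day 7 gave 376, 437, and 394. The 4 days did not overlap. Relative to fresh cells it was lower by a log2 change of −1.92 (SE 0.19, adjusted p = 7e-08 from edgeR) on day 1 and −0.997 (SE 0.19, adjusted p = 0.00013) on day 3. On day 7 it was −0.36 (SE 0.18, adjusted p = 0.0965), with an interval of −0.75 to 0.02, and that value was 0.091 with library totals. It was called when only these libraries were fitted (−0.38, adjusted p = 0.0183). The Krt8–/– values were −1.80 (SE 0.19), −0.80 (SE 0.19), and −0.23 (SE 0.18, adjusted p = 0.292), and with library totals the day 3 value was −0.23 (adjusted p = 0.194).

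Anxa11 binds the calcium sensor Pdcd6 and S100a6 and tethers RNA granules to lysosomes. Krt8+/+ libraries were at 110, 120, and 112 CPM on day 0, at 117, 112, and 116 on day 1, at 65.3, 85.0, and 81.0 on day 3, and at 50.4, 51.8, and 43.6 on day 7. Days 0 and 1 overlapped, and the later days were each apart from the day before. The log2 change was 0.011 (SE 0.13, adjusted p = 0.954 from edgeR), −0.56 (SE 0.13, adjusted p = 0.00133), and −1.23 (SE 0.14, adjusted p = 1.7e-07), and with library totals the day 1 value was 0.49 (adjusted p = 0.004024), the day 3 value 0.045, and the day 7 value −0.77. In Krt8–/– AECs, it was called higher on day 1 (0.40, SE 0.13, adjusted p = 0.0179). That call was lost without batch 3 (0.18, adjusted p = 0.353), with no filter on low counts (0.0517), or when only these libraries were fitted (0.0528). There it was lower on day 3 (−0.38, SE 0.13, adjusted p = 0.0214), which turned to 0.18 with library totals. The day 3 call was lost without batch 1 (adjusted p = 0.114) or 2 (0.204), or with no filter (0.0972). On day 7 it was lower in Krt8–/– AECs (−1.27, SE 0.14, adjusted p = 1e-07).

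Anxa11 has near copies in the genome, so its counts are less certain than those of the others. The pseudogene Gm2260 shares 657 bases at 100% identity and Gm2274 shares 609 bases at 99.7%, with 1363 and 171 counts over all libraries against 30565 for Anxa11. With both copies added, the log2 ratio of the means to day 0 was −0.027, −0.58, and −1.28 in Krt8+/+ AECs and 0.36, −0.42, and −1.32 in Krt8–/– AECs. The antisense gene Anxa11os overlaps 113 exonic bases and had 62 counts. The sources used here do not state whether strand was used in counting, so reads from both cannot be told apart.

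**Figure D3:**
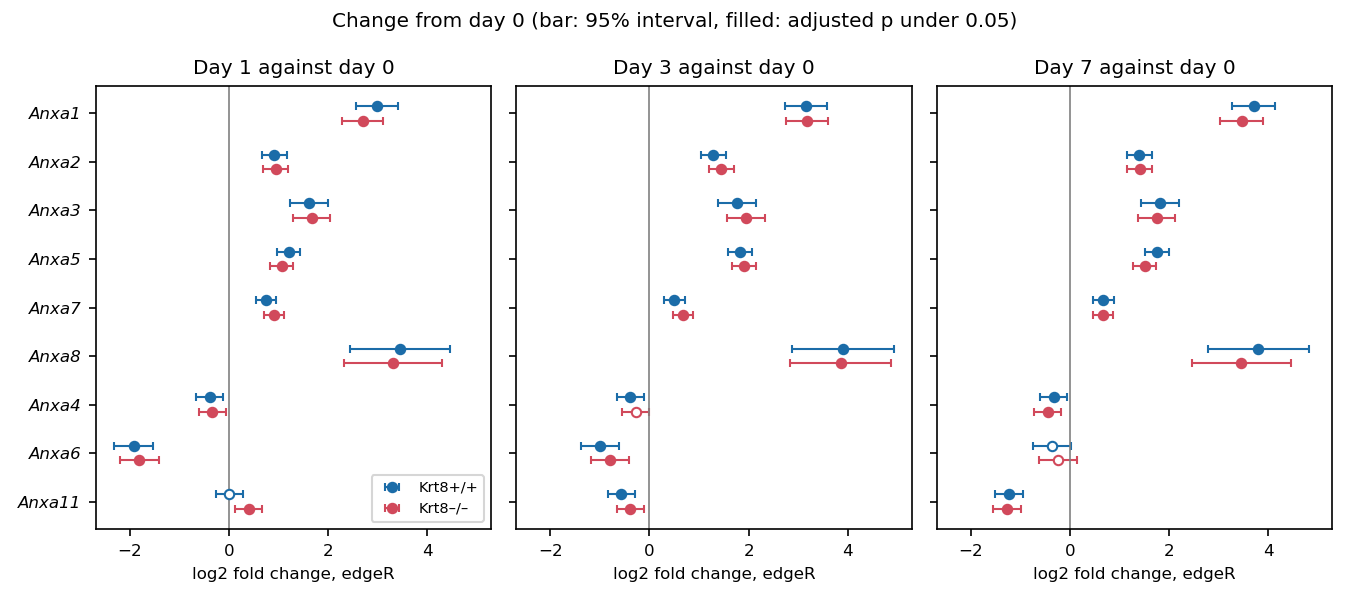
Log2 change of each annexin from day 0 on days 1, 3, and 7 in edgeR, with 95% intervals, for Krt8+/+ (blue) and Krt8–/– (red) AECs (filled points have an adjusted p under 0.05). Anxa1 and Anxa8 lie farthest to the right, at 3.70 and 3.79 on day 7 in Krt8+/+ AECs, and Anxa6 moves from −1.92 on day 1 toward 0.

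Marker lists of other cells moved over the same days. The 4 mesothelial markers summed to 66.3 to 205 CPM in fresh Krt8+/+ cells and to 988 to 1873 on day 7. This was Msln, at 34.8 ± 23.1 and then 1462 ± 446 CPM, whereas Upk3b went from 61.6 to 1.40, Lrrn4 from 29.0 to 5.02, and Wt1 from 2.80 to 0.748. The 6 fibroblast markers summed to 293 to 979 CPM in fresh Krt8+/+ cells, then to 135 to 249, 961 to 1729, and 870 to 1805 CPM after 1, 3, and 7 days. Macrophage markers, 6 genes, were between 6.06 and 157 summed CPM throughout. The part of these cells in the annexin changes was not tested. The 4 club and ciliated cell markers summed to 4177 to 9699 CPM on day 0 and to 20.2 to 32.3 on day 7, and their part in the fall of Anxa11 was not tested either.

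Between days 1 and 3 in Krt8+/+ AECs, 4 members were called, with 26.3% of all genes called (14.4% higher and 11.9% lower). Anxa6 (0.92, SE 0.19, adjusted p = 0.00111 from edgeR), Anxa5 (0.62, SE 0.11, adjusted p = 0.00039), and Anxa2 (0.38, SE 0.12, adjusted p = 0.0242) were higher and Anxa11 (−0.57, SE 0.13, adjusted p = 0.00347) was lower. The Anxa2 call was lost without batch 1, 2, or 3 (adjusted p = 0.135, 0.0935, and 0.217) and that of Anxa11 without batch 1 (0.0749). Anxa2 also lost it with DESeq2 size factors (0.0543), no filter (0.0635), or only these libraries (0.188). Between days 3 and 7, where 6.58% of genes were called (3.11% higher and 3.47% lower), Anxa6 was higher (0.63, SE 0.18, adjusted p = 0.0427) and Anxa11 lower (−0.67, SE 0.13, adjusted p = 0.0036). The Anxa6 call was lost without batch 1, 2, or 3 (adjusted p = 0.0886, 0.0802, and 0.372) or with library totals (0.0572). The Anxa11 call was lost without batch 2 (0.131) or 3 (0.0737). Anxa1 had a log2 change of 0.55 over these days (SE 0.19, adjusted p = 0.0883 from edgeR) and was called by DESeq2 (adjusted p = 0.0357).

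In Krt8–/– AECs, the step from day 1 to day 3 called Anxa6 (1.008, SE 0.19), Anxa5 (0.84, SE 0.11, adjusted p = 2.2e-05 from edgeR), and Anxa2 (0.50, SE 0.12) higher and Anxa11 (−0.78, SE 0.13) lower, with 23.6% of all genes called (13.4% higher and 10.2% lower). Anxa2 lost its call without batch 1 (adjusted p = 0.115) or 3 (0.0785), or when only these libraries were fitted (0.0664). From day 3 to day 7, where 10.5% of genes were called (4.40% higher and 6.15% lower), Anxa11 (−0.89, SE 0.13, adjusted p = 0.00017) and Anxa5 (−0.40, SE 0.11, adjusted p = 0.023) were lower. The Anxa5 call was lost without batch 1, 2, or 3 (adjusted p = 0.202, 0.061, and 0.319) or with no filter on low counts (0.108). Anxa6 stood at 0.56 (SE 0.18, adjusted p = 0.0553) and was called with batch as a block (0.57, adjusted p = 0.0466). Its call was also gained with DESeq2 size factors (0.0492), only these libraries (0.00837), or DESeq2 (0.0214).

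Krt8–/– and Krt8+/+ AECs did not differ in any annexin past an adjusted p of 0.05 in edgeR, on any day, over days 1 to 7, or in the genotype difference by day. The genes called numbered 5 (0.0277%), 3 (0.0166%), 3 (0.0166%), and 3 (0.0166%) on days 0, 1, 3, and 7, 5 (0.0277%) over days 1 to 7, and 1 (0.00554%) by day. DESeq2 called 0 members as well in each of these comparisons. At an unadjusted p under 0.05 in edgeR, there were 0 members on day 0, 1 on day 1, 1 on day 3, 0 on day 7, 1 over days 1 to 7, and 0 by day, where 2.65%, 3.54%, 2.50%, 1.41%, 2.88%, and 1.49% of all genes had such a value. On day 0, Anxa5 (0.23, unadjusted p = 0.051 from edgeR) came under 0.05 with batch as a block (0.042), in DESeq2, or without batch 2. Fitting only the libraries compared brought Anxa1 under 0.05 on days 0 and 3.

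The value on day 1 was that of Anxa11, at 122, 142, and 188 CPM in Krt8–/– and 117, 112, and 116 in Krt8+/+ libraries. Every Krt8–/– library was above every Krt8+/+ library, as for 3.49% of all genes on that day. The log2 difference was 0.39 (interval 0.12 to 0.67, unadjusted p = 0.00774 and adjusted p = 1 from edgeR), higher in 3 of 3 batches. It no longer had an unadjusted p under 0.05 without batch 3 or when only these libraries were fitted. Anxa5 gave the values on day 3 and over days 1 to 7. On day 3 it was at 1086, 1009, and 1124 CPM in Krt8–/– and 796, 910, and 894 in Krt8+/+ libraries, a log2 difference of 0.31 (interval 0.08 to 0.54, unadjusted p = 0.0108 and adjusted p = 1 from edgeR). Over days 1 to 7 its difference was 0.16 (interval 0.02 to 0.30, unadjusted p = 0.028 and adjusted p = 1 from edgeR). Both Anxa5 values missed an unadjusted p of 0.05 without batch 1 or without batch 3, and the value over days 1 to 7 also missed it with DESeq2 size factors, library totals, or no filter on low counts.

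On days 1 and 3, all 9 values were above 0, as for 47.8% and 50.4% of all genes. The values of day 1 ran from 0.015 (Anxa6) to 0.39 (Anxa11). On day 3, 6 members were higher in 3 of 3 batches, as for 15.2% of genes. For 4 of the 9 on that day, Anxa1, Anxa2, Anxa5, and Anxa11, every Krt8–/– library was above every Krt8+/+ library, against 6.79% of all genes. Their log2 differences were 0.36 (interval −0.03 to 0.75), 0.16 (−0.09 to 0.41), 0.31, and 0.19 (−0.09 to 0.47). The median over the members was 0.19, and over all genes 0.003. The members share libraries and most of them moved together across days, so these are not independent values. Without batch 1, the 9 values lay between 0.087 (Anxa4) and 0.24 (Anxa5). On day 7, the members' median was −0.018.

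Apart from Anxa8, the intervals of the genotype difference on single days lay between −0.48 (Anxa6 on day 0) and 0.75 (Anxa1 on day 3). Differences beyond these bounds were outside every such interval. For Anxa8, the interval on day 0 ran from −0.57 to 1.34 around a difference of 0.38. The genotype-by-day test, with 3 degrees of freedom, had its lowest unadjusted p for Anxa11 (0.127 from edgeR). Without batch 1, which differed between genotypes in Y-linked transcripts, the Anxa11 difference on day 1 was 0.54 and that of Anxa5 on day 3 was 0.24 (unadjusted p = 0.0062 and 0.144 from edgeR). On day 0, club and ciliated cell markers summed to 11780 to 17050 CPM in Krt8–/– against 4177 to 9699 in Krt8+/+ libraries, and their part in any annexin difference was not tested.

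**Figure D4:**
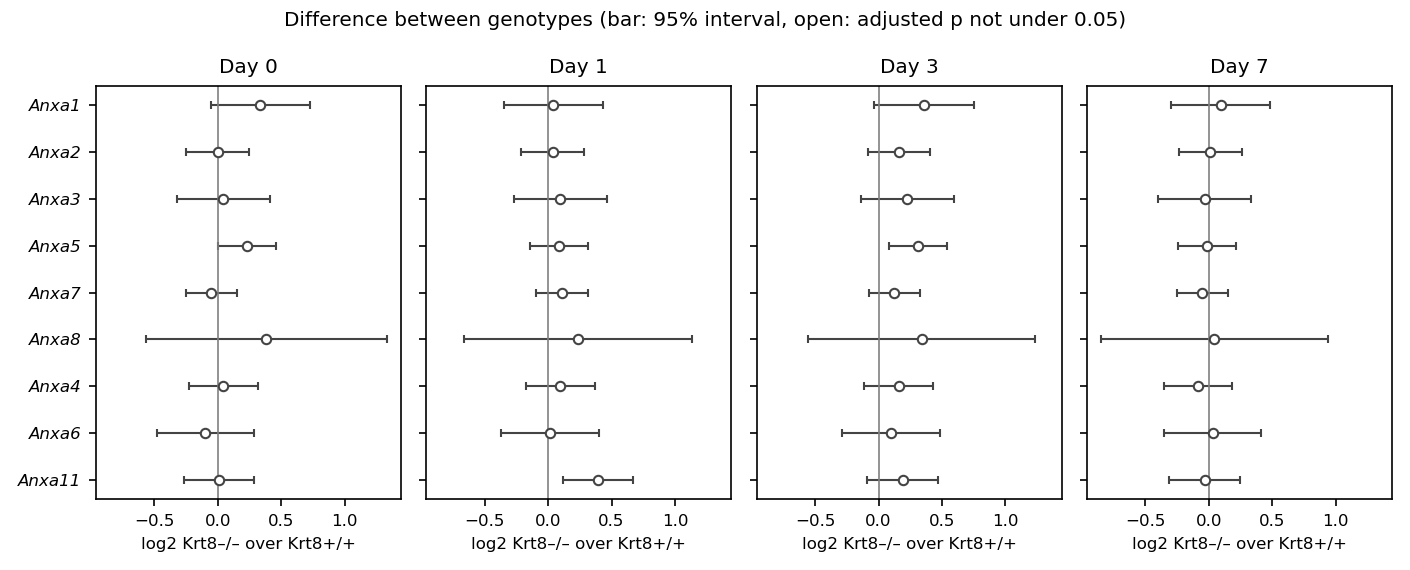
Log2 difference of Krt8–/– from Krt8+/+ AECs for each annexin on days 0, 1, 3, and 7, with 95% intervals from edgeR (open points have an adjusted p that is not under 0.05). All 36 points are open, those of days 1 and 3 lie to the right of 0, and the widest intervals are those of Anxa8.

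The genes that work with annexins were followed in a list of 20 partners and membrane repair genes, of which 19 passed the filter on low counts and Trim72 did not. In Krt8+/+ AECs, 11 of the 19 were higher and 3 lower after 1 day. There were 11 higher after 3 days and 13 after 7 days, with 0 lower at the later times. Of all genes, 26.2%, 26.1%, and 28.6% were higher and 28.5%, 27.8%, and 30.2% lower on days 1, 3, and 7. Krt8–/– AECs had 10 higher and 1 lower after 1 day, 12 higher after 3, and 13 higher after 7. Of all genes there, 23.7%, 25.4%, and 28.6% were higher and 26.9%, 26.6%, and 29.9% lower. The median log2 change of the 19 in Krt8+/+ AECs was 1.02, 0.87, and 0.87, and of all genes 0.00. None of the 19 was called between genotypes on any day.

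S100a6, a small calcium-binding partner of Anxa11, had the largest rise among the named partners. It went from 42.8, 55.7, and 43.6 CPM in fresh Krt8+/+ cells to 386, 1190, and 682 on day 1 and 1191, 1105, and 1099 on day 7, a log2 change of 3.99 (SE 0.34), 4.35 on day 3, and 4.58 (SE 0.35, adjusted p = 9.3e-10 from edgeR). Its course and that of Anxa11 thus ran in opposite directions by day 7. S100a11, a partner of Anxa1, went from 256, 322, and 309 CPM to 1730, 1626, and 1348 on day 7 (log2 change 2.17, 2.11, and 2.41, SE 0.27 each). S100a10, the subunit bound by Anxa2, went from 104, 139, and 129 CPM to 370, 395, and 319 on day 7 (1.46, 0.96, and 1.55, SE 0.24 each). Ahnak, a giant scaffold held at the membrane by Anxa2 and S100a10, changed by 1.77 (SE 0.21), 1.42 (SE 0.21), and 1.64 (SE 0.21). The partners of Anxa1 and Anxa2 were thus higher together with them in the same libraries.

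Pdcd6, the calcium sensor that binds Anxa7 and Anxa11, was higher on each day, by 0.86 (SE 0.18), 0.59 (SE 0.18), and 0.78 (SE 0.18). Sri, which encodes sorcin, a binder of Anxa7, was lower in Krt8+/+ AECs on day 1 (−0.35, SE 0.12, adjusted p = 0.0223 from edgeR). It was at 0.14 (adjusted p = 0.349) after 3 days and higher by day 7 (0.42, SE 0.12, adjusted p = 0.00669). In Krt8–/– AECs, Sri was called higher on days 3 and 7 and was not called on day 1. The calpain genes that were lower after 1 day in Krt8+/+ AECs, Capn1 (−0.82, SE 0.15) and the small subunit Capns1 (−0.52, SE 0.17), were at 0.25 (adjusted p = 0.152) and 0.56 (adjusted p = 0.00889) on day 7. In Krt8–/– AECs, Capn1 was called lower on day 1 and Capns1 was not. With library totals, the median of all genes in Krt8+/+ AECs on day 1 was 0.46, larger than the fall of Sri and close to that of Capns1. Outside the named partners, Dysf had the largest log2 change on day 7, at 5.92 (SE 0.60), from 2 to 6 counts in a fresh Krt8+/+ library to 214 to 494 on day 7, and it is singled out after its value was seen. Dysf encodes dysferlin, a membrane repair protein of muscle.

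**Figure D5:**
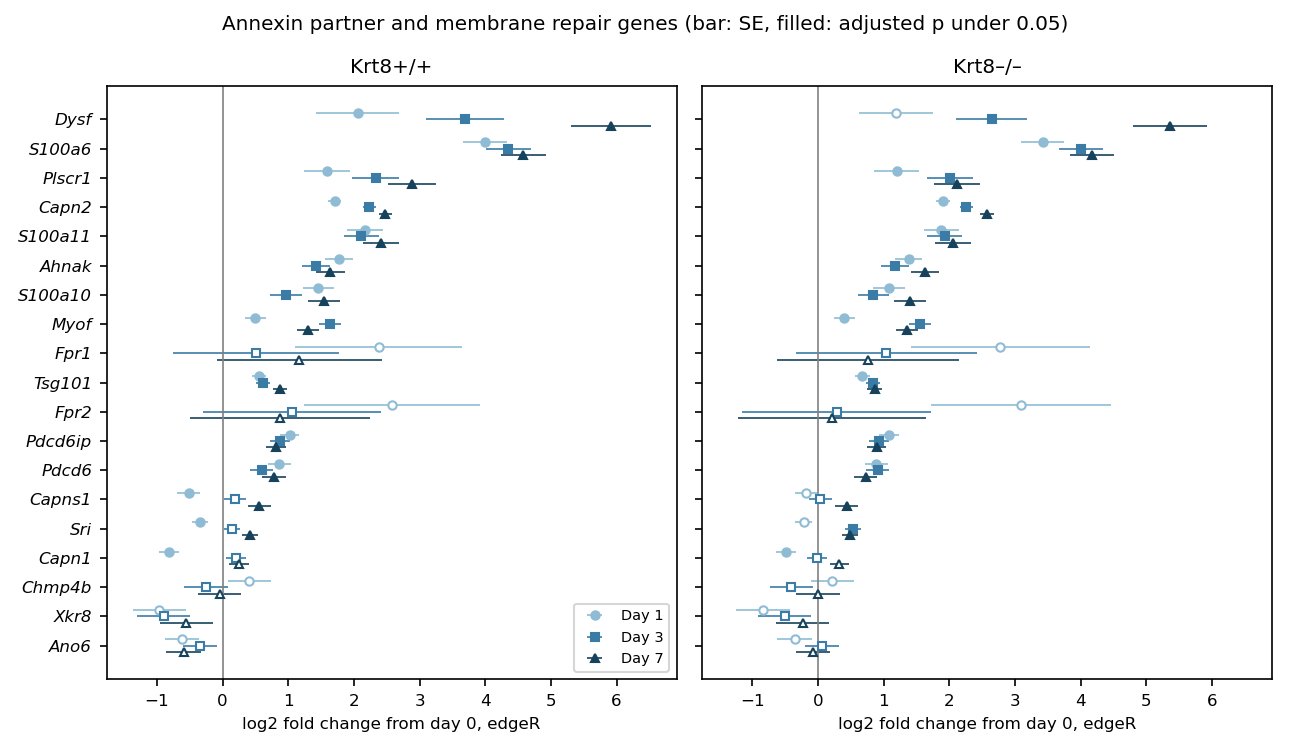
Log2 change from day 0 of the 19 tested partner and membrane repair genes on days 1, 3, and 7 in Krt8+/+ (left) and Krt8–/– (right) AECs, with the SE from edgeR (filled symbols have an adjusted p under 0.05). S100a6 lies at 3.99 to 4.58 in Krt8+/+ AECs, Capn1, Capns1, and Sri lie below 0 on day 1, and the wide bars are those of Fpr1 and Fpr2.

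The 3 other annexin genes were at low levels. Anxa10, a member known from gastric epithelium, had 0 counts in all fresh libraries of both genotypes. It reached 45, 470, and 15 counts over the 3 Krt8+/+ libraries after 1, 3, and 7 days, and 171, 398, and 8 in Krt8–/– AECs. Against a floor of 3 counts over the fresh group, scaled by library totals, day 3 was 167-fold higher in Krt8+/+ and 159-fold higher in Krt8–/– AECs. These bounds cover counting error only, and with TMM scaling they would be lower in both genotypes. On day 3, single libraries ranged from 5.39 to 18.1 CPM in Krt8+/+ and from 4.80 to 14.6 in Krt8–/– AECs. Anxa10 was called in edgeR on days 1 and 3 in both genotypes (adjusted p = 0.00619 and 8.6e-05 in Krt8+/+) and on day 7 in neither (0.0508 and 0.135). Anxa9 was at 2.73 ± 0.744 CPM in fresh Krt8+/+ cells and was not called in any comparison. Anxa13 had at most 21 counts in a library and was called on day 3 in Krt8–/– AECs, at a log2 change of 2.296 (SE 0.75, adjusted p = 0.0142), against 1.54 (SE 0.72, adjusted p = 0.0781) in Krt8+/+ AECs, with a genotype difference of 0.20 (SE 0.65, adjusted p = 1) on that day.

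Across the 24 libraries, the log2 CPM of the 6 members that rose were correlated with each other, with Pearson's r from 0.786 (Anxa5 with Anxa7) to 0.978 (Anxa2 with Anxa5). Anxa4 had r from −0.704 to −0.607 with these 6 and 0.461 with Anxa6. Anxa6 and Anxa11 had r = −0.429 with each other. The libraries share day, batch, and depth, so these values describe the courses and carry no test.

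The gene outside the family with the most similar course was sought for each member by Pearson's r over the 24 libraries. F3, the tissue factor gene, was nearest to Anxa1 (r = 0.9945), Padi2 to Anxa8 (0.986), Aaas to Anxa2 (0.983), 2200002D01Rik to Anxa3 (0.985), and Pgrmc1 to Anxa7 (0.969). Itgb6, the integrin subunit that activates TGF-β, was nearest to Anxa5 (0.987) and was so by Spearman's rho too (0.975). Pbxip1 was nearest to Anxa6 (0.985) and Cops7a to Anxa4 (0.914). For Anxa11 it was Scgb1a1 (0.950), the secretory marker of club cells. For the other 8 members, the nearest gene was a different one by Spearman's rho.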

How the data were processed

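Bulk RNA-Seq covered 24 libraries, 3 per combination of genotype and day. The authors deposited 1 table of whole-number read counts per gene without normalization. The submitters' processing notes name cutadapt 2.3, STAR 2.7.8a, RSEM 1.3.3, and GRCm38, so the deposited counts may be rounded estimates. The sources used here state neither the annotation nor the strand setting. Symbols came from GENCODE M21 (55154 of 55421 identifiers). The 5 further entries held 0 counts.

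The main test was edgeR 4.0.16's quasi-likelihood F test in R 4.3.3, with TMM scaling, after its filterByExpr function (minimum count 10, minimum total 15) had kept 18046 genes. All 8 groups entered a single fit (16 residual degrees of freedom), with Benjamini-Hochberg adjustment over all genes and a threshold of 0.05. SEs were derived from the F statistic. Over days 1 to 7, days were weighted 0.167, 0.5, and 0.333. Correlations used log2 CPM with a prior count of 2. The procedure was tested on simulated counts.

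Members and lists were chosen with earlier results of these data known. The text names all members, 6 partners fixed by name, the gene most like each member, Krt8, and marker sums. Alternatives were DESeq2 1.42.0, its size factors, no filter, each batch left out, only the libraries compared, batch as a block, the longest transcript as length, Spearman correlation, and, chosen after the data were seen, library totals. The labels give batch numbers shared by all groups, which pair the libraries. Deviations of paired libraries from group means correlated across genes at 0.0573 to 0.548 between genotypes and −0.0345 to 0.383 between days. No pair of libraries within a group was identical (24 pairs, chi-square per gene at least 10.2). Intervals of fitted values reflect the spread between batches, and floors cover counting error only. The single-cell and tissue data of the study were not analysed here.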

Additional observations from a re-analysis of the deposited data

How the results depend on the processing

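Counts of annexins called against day 0 stayed within 1.5 times the values given under every alternative run. With each batch left out, the count for day 3 against day 1 in Krt8+/+ AECs ranged from 2 to 3 (4 with all libraries), for day 7 against day 3 from 0 to 1 (2), and for day 7 against day 3 in Krt8–/– AECs it was 1 (2). The last was also 1 with no filter on low counts, and day 7 against day 3 in Krt8+/+ AECs gave 1 with library totals. Between genotypes, 0 members were called under every alternative.

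Of the member results that were called, 6 changed sign, all with library totals in place of TMM. Anxa4 went to 0.096, 0.22, and 0.14 on days 1, 3, and 7 in Krt8+/+ AECs and to 0.15 on day 1 in Krt8–/– AECs. Anxa11 on day 3 went to 0.045 in Krt8+/+ and 0.18 in Krt8–/– AECs. That scaling differs by construction in the shift of all genes given above. Of 1215 alternative values of single members, 1150 stayed on the same side of the threshold without a called value changing sign, 48 lost their call, and 11 gained one. Among values called in neither fit, 40 changed sign. With the replicate block, the pairing of the libraries by batch gave 8, 9, and 8 members against day 0 in Krt8+/+ and 9, 8, and 8 in Krt8–/– AECs. It gave 3 members for day 7 against day 3 in Krt8–/– AECs, where Anxa6 gained its call, and changed no other call of a member. The Anxa1 share of the pool on day 7 was 35.4% with the longest transcript as length. Anxa8 had few counts on day 0, with 41 in its lowest library.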

Other observations

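On day 7, batch 3 gave the lowest value of several annexins in both genotypes, a pattern singled out after the values were seen. Anxa1 was at 2401 CPM there in Krt8+/+ and 2211 in Krt8–/– AECs, against 2705 to 3301 and 3131 to 3632 in the other batches. Anxa8 was at 141 and 128 CPM, against 254 to 272 and 263 to 297. Anxa3 was at 1679 and 1435 CPM, against 1865 to 1966 and 1962 to 1993. Anxa2 did not follow, with 2144 and 2217 CPM in batch 3, the highest or level with the highest of its group. Fibroblast markers summed to 1805 CPM in batch 3 of Krt8+/+ AECs on day 7, against 869.7 and 951.5 in the others, and to 2978 against 901.7 and 796.7 in Krt8–/– AECs. Macrophage markers summed to 7.16 and 6.06 CPM there, the lowest of each group. Batch 3 was also the only one with Y-linked transcripts in both genotypes, at 207.9 and 199.2 summed CPM on day 7. It was lowest on day 0 too for Anxa1 (167 and 237 CPM) and Anxa8 (4.54 and 10.8 CPM). Anxa3 was highest in batch 3 on day 0, at 560 and 582 CPM. The part of these cells and of the sex-linked difference was not tested, and no test was made of these differences.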
